A study of Mus musculus with 4 samples.

Results

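Splicing factors and the kinases that phosphorylate them were followed in adult mouse sympathetic ganglia, as the 99 rows, of 21937 in the deposited table, whose gene symbol belongs to 1 of 8 families. The families are the Clk kinases (4 rows), the Srsf proteins (14), Tra2 (2), the Hnrnp proteins (18), U2af (3), Sf3a and Sf3b (8), Prpf (13) and the numbered Rbm genes (37). The rule rests on symbols alone and uses no measured value. These rows, and the gene lists set beside them, were however chosen with earlier results of these data known. The series has 4 samples, each a single pool of superior cervical and stellate ganglia from mice at postnatal day 60, and every group received tamoxifen for 10 days. The Hand2 mutant (strain B6.129/SVJHand2flox/del::C57BL/6P1DbhCreERT2) pooled 16 ganglia from 4 mice. The Gata3 mutant (B6.126/SV129Gata3flox/flox::C57BL/6P1DBhCreERT2) pooled 32 from 8 mice, as rudiments whose remaining cells, by the submitters' design text, had escaped the deletion. The Hand2 control (B6.129/SVJHand2flox/+::C57BL/6P1DbhCreERT2) and the Gata3 control (B6.129/SV129Gata3flox/+::C57BL/6P1DbhCreERT2) pooled 16 ganglia from 4 mice each. All groups carried DbhCreERT2, a tamoxifen-dependent Cre driven by the dopamine beta-hydroxylase promoter, so the deletion is aimed at Dbh-expressing cells and not at glia, vessels or connective tissue.

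The deposited table compares 1 pair of columns and names neither the line nor the samples behind them. Side B is its second group mean, read as the mutant side, and side A is the column headed control. Values are whole numbers treated as normalised expression without a unit, they summed to 19135221 on side B and 19343986 on side A, and neither side has a replicate error. "Higher" and "lower" therefore describe these columns and are no test of genotype. Hand2 had a value of 2001 on side B and 4749 on side A, and Gata3 had 1050 on side B and 1105 on side A. The noradrenergic markers were abundant. Th had 44280 on side B and 47123 on side A, Dbh had 89194 on side B and 102922 on side A, and Slc6a2 had 95865 on side B and 125271 on side A. Markers of satellite glia were present too, at 21156 on side B and 18039 on side A in sum over 4 genes. The 5 skeletal muscle markers summed to 31 on side B and 1313 on side A, with Mb listed at 0 on side B, and the 5 sensory neuron markers to 202 on side B and 854 on side A. The 5 macrophage markers summed to 2634 on side B and 1898 on side A. Fibroblast markers summed to 15242 on side B and 15241 on side A, with Col1a1 lower (1988 on side B, 2643 on side A) and Dcn higher (7875 on side B, 6655 on side A). Endothelial markers summed to 864 on side B and 833 on side A. Adipocyte markers summed to 929 on side B and 1208 on side A, with Lpl at 582 on side B and 844 on side A and Adipoq at 227 on side B and 217 on side A. The part of these cell types, and of the sex-linked transcripts such as Xist (1595 on side B, 114 on side A), in the splicing genes was not tested. In bulk RNA, fewer cells of a type and less RNA per cell cannot be told apart.

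SR proteins bind exonic RNA sequences and recruit the spliceosome, and their serine-arginine tails are phosphorylated by the Clk kinases in the nucleus and by the Srpk kinases in the cytoplasm. Heterogeneous nuclear ribonucleoproteins (hnRNPs) coat pre-mRNA and often oppose SR proteins at the same exon. U2AF and SF3 recognise the 3' end of the intron, and Prpf proteins belong to the later snRNP complexes. Many of these genes control their own level through retained introns or exons with early stop codons, and mouse Clk1 and Clk4 are textbook cases of introns held back in the nucleus.

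The promoters of 3 of the 4 members that stood lowest against genes of similar level, Clk4, Rbm33 and Srsf5, are shown with that of Tra2a. Among the promoters matched, only those of Clk4 and Tra2a held the full cAMP response element searched. For Clk1, the other of these 4 members, no promoter was matched, so whether it holds the element is not known. Sequences are from RefSeq on GRCm38.p6, run 5′ to 3′ on the gene's strand from 250 bases before to 50 after its start, and promoters were matched for 84 of the 99 rows' genes. Capitals mark the E-box (CANNTG), the cAMP response element (TGACGTCA) and its shorter core (TGACG), which the full element contains, on either strand, and adjoining matches run together. The windows are chr11:51262864-51263163 (plus strand) for Clk4, chr5:28316939-28317238 (plus) for Rbm33, chr12:80945249-80945548 (plus) for Srsf5 and chr6:49264003-49264302 (minus) for Tra2a.
Clk4: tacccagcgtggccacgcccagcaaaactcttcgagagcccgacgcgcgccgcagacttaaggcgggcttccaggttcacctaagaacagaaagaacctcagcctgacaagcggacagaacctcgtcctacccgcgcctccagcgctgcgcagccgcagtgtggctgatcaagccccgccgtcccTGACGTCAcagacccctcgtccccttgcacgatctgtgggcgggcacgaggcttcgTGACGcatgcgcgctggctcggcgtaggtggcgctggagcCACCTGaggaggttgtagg
Rbm33: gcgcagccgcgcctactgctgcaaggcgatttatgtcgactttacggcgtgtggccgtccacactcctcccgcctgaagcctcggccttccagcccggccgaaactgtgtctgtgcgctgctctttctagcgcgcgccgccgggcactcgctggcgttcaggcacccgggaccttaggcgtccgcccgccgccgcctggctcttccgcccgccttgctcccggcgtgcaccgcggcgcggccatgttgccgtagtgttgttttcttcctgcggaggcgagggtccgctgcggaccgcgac
Srsf5: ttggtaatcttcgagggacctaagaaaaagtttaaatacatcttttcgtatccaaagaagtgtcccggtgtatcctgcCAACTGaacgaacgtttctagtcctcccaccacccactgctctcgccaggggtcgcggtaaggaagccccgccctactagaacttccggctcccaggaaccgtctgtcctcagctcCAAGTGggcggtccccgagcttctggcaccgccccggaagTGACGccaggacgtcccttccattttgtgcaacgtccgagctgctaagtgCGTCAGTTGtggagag
Tra2a: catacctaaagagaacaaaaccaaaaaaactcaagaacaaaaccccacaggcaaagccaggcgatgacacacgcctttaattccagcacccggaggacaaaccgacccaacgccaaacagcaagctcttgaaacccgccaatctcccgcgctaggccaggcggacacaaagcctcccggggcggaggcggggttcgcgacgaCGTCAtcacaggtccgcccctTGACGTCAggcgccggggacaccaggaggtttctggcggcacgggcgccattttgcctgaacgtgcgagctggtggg

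The full element was found in 2.38% of member promoters, 3.35% of the 9429 promoters of genes whose mean over both sides reached 50, and 1.88% of all 27025 promoters. The shorter core was found in 51.2% of member promoters, 32.6% of the expressed genes' promoters and 21.0% of all. E-boxes, the motif bound by basic helix-loop-helix factors such as Hand2, were found in 63.1% of member promoters, 62.3% of the expressed genes' and 72.1% of all. The sequence CATCTG, an E-box form, was found in 9.52%, 11.1% and 17.2% of the same 3 sets, and GATA, the core bound by Gata factors, in 47.6%, 43.0% and 58.3%. The median GC content was 60.8% in member promoters, 61.7% in the expressed genes' and 52.7% in all. Clk4 and Tra2a share the full element but not the ratio between the sides, which was 0.615 for Clk4 and 0.976 for Tra2a. Rbm33 had a lower ratio than Srsf5 and its window held none of the 6 motifs searched, the last of which was TATAAA (11.9% of member promoters, 6.47% of the expressed genes', 14.2% of all). These are single genes, and a link between motifs and ratios was not tested.

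The splicing genes as a group stayed close to equality between the sides, as most genes did, and the widest departures were 2 kinases. Of the 99 members 92 reached a mean of 50 over both sides and entered the counts. Among these 92, Clk1 and Clk4 were at least 1.5-fold lower on side B (2 of 92, 2.17%) and none was as much higher. Over all 12043 genes with such a mean value, 1.47% were lower and 0.681% higher by that measure, and 1.23% of the 11177 genes within the members' range of mean values were lower. The members' share is near this background, so the count alone sets them apart in nothing. By a smaller measure, 5 members were at least 20% lower on side B and none at least 25% higher, beside 5.62% and 4.35% of all genes.

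The direction was more one-sided than the size. Of the 92 members 62 (67.4%) had a lower value on side B and 30 a higher one, beside 48.8% of all genes that were lower. The median log2 ratio of B to A, computed with 1 added to each value, was -0.05 for the members and 0.0026 for all genes. The members' ratios spread less, with an SD across genes of 0.18, against 0.31 for all genes. Without Clk1 and Clk4 the median was -0.05, with 60 of 90 members lower. No replicate spread exists against which a median shift of this size could be set.

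Each member was also placed among the 500 genes nearest to it in mean value, a yardstick and not a test. Of the 92 members 4, Clk1, Clk4, Rbm33 and Srsf5, lay below the central 95% of these genes and none above. Of all genes 2.67% lay below and 2.73% above. The same 4 are the members with an unadjusted p under 0.05 in the authors' deposited table, where 1.58% of 16990 genes had such a p and were lower and 0.471% were higher. Both measures draw on the same comparison, so their overlap is not independent support. In the authors' deposited table Clk1 alone had an adjusted p under 0.05, as a lower gene, beside 0.318% of genes lower and 0.0471% higher with such a p. For 94 members the adjusted p in the authors' deposited table is 1.

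**Figure D1:**
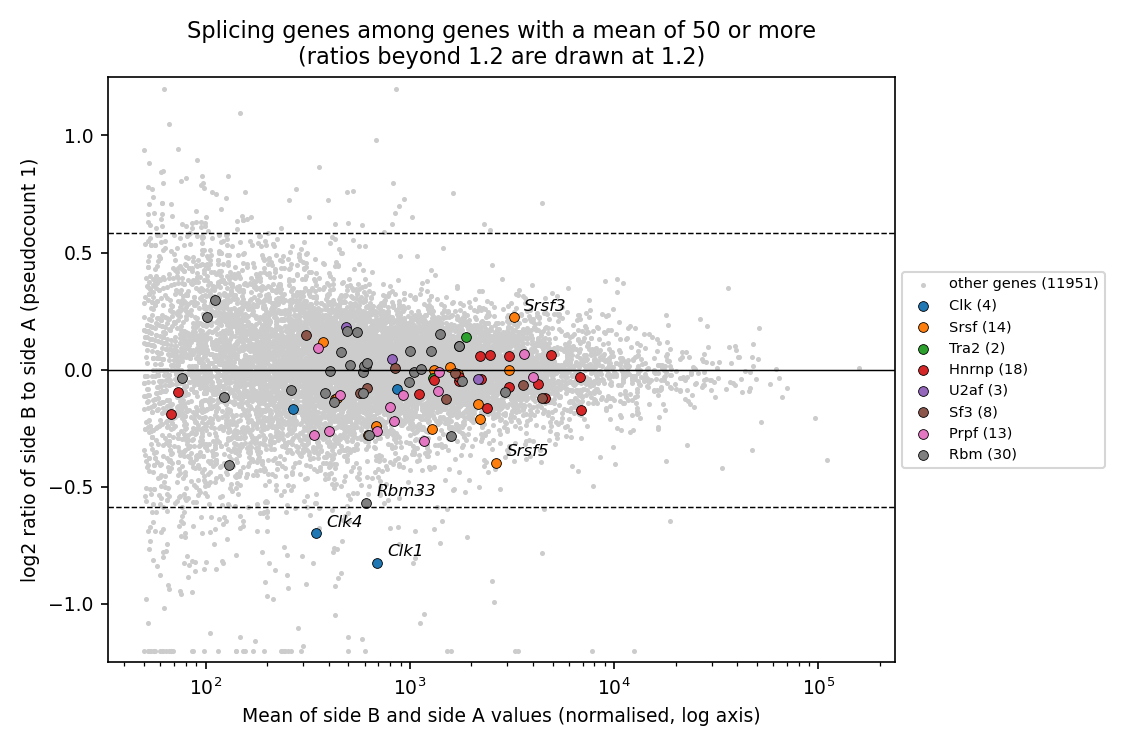
Log2 ratio of side B to side A (pseudocount 1, vertical axis) against the mean of the 2 sides on a log axis, for genes whose mean reached 50. Coloured points are the 92 members by family, grey points the other genes, dashed lines mark 1.5-fold, and the 44 ratios beyond 1.2 in size are drawn at 1.2. Clk1 and Clk4 lie under the lower dashed line and Rbm33 just above it.

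Of the 4 Clk kinases, Clk1 and Clk4 were lower and Clk2 and Clk3 differed little. Clk1, the founding member of the family, had a value of 498 on side B and 882 on side A. It was 1.77-fold lower (log2 ratio -0.82) with adjusted p = 0.0252 in the authors' deposited table, and none of its 500 nearest genes in mean value had a lower ratio. Clk1 is thus the member that passed the authors' test, and it fell.

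Clk4, the closest relative of Clk1, had 264 on side B and 429 on side A, 1.62-fold lower (log2 ratio -0.70). Only 1 of its 500 nearest genes had a lower ratio, and its adjusted p is 0.995 in the authors' deposited table. Clk2 had 251 on side B and 282 on side A, a ratio of 0.890. Clk3 had 836 on side B and 886 on side A, a ratio of 0.944, and 126 of its 500 nearest genes were lower still.

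Summed over the family, the Clk values came to 1849 on side B and 2479 on side A, a ratio of 0.746. Clk1 and Clk4 together had 762 on side B and 1311 on side A, a ratio of 0.581, so they account for most of the family's difference. Per kilobase of the longest coding transcript, Clk1 stood at 277 on side B and 491 on side A and Clk3 at 335 on side B and 355 on side A. On that per-length scale Clk1 was the more abundant kinase on side A and Clk3 on side B. In the reference annotation Clk1 and Clk4 have 7 retained-intron transcripts each and Clk2 and Clk3 have 4 each. A total per gene does not tell spliced from intron-retaining RNA.

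The SR proteins, the substrates of these kinases, were lower more often than higher but by small amounts. Of 14 rows 10 were lower and 4 higher, none by 1.5-fold, with a median log2 ratio of -0.12. Their values summed to 21057 on side B and 22334 on side A, a ratio of 0.943. Srsf5 and Srsf3 marked the ends of the family.

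Srsf5, an early-described SR protein whose RNA responds to growth signals, had 2290 on side B and 3016 on side A, 1.32-fold lower (log2 ratio -0.40). Of its 500 nearest genes 6 were lower, and the adjusted p in the authors' deposited table is 0.716. Reads of Srsf5 are partly uncertain, since 27.8% of the 50-base stretches of its longest coding transcript occur in the transcript of another gene, Gm12966. Srsf12 had 566 on side B and 686 on side A, and Srsf11, an SR-related protein, had 1171 on side B and 1398 on side A. Their log2 ratios were -0.28 and -0.26, and 22 and 20 of their 500 nearest genes were lower.

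Srsf3, the smallest SR protein and also an mRNA export adaptor, had 3485 on side B and 2980 on side A, 1.17-fold higher (log2 ratio 0.23). Of its 500 nearest genes 17 were higher still, and 31.5% of its 50-base stretches occur in other genes such as Gm12355. Srsf9 had 389 on side B and 358 on side A, and Srsf7 had 1572 on side B and 1559 on side A. Srsf1, the prototype of the family, differed by a single unit, 3042 on side B and 3041 on side A, and Srsf10 likewise, 1306 on side B and 1307 on side A. Some SR rows carry older names. RefSeq gives Srsf13b as a synonym of Srsf12, so those 2 rows may be the same gene, and lists Srsf2ip and Srsf15 as Scaf11 and Scaf4. Srsf13b had 419 on side B and 456 on side A.

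Tra2a and Tra2b, SR-like activators of exon inclusion, stood on either side of equality. Tra2a had 1278 on side B and 1309 on side A, a ratio of 0.976, and Tra2b had 1970 on side B and 1788 on side A, a log2 ratio of 0.14. Of the 500 genes nearest to Tra2b, 46 were higher still, and 18.3% of the 50-base stretches of Tra2b occur in other genes such as Gm10254.

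**Figure D2:**
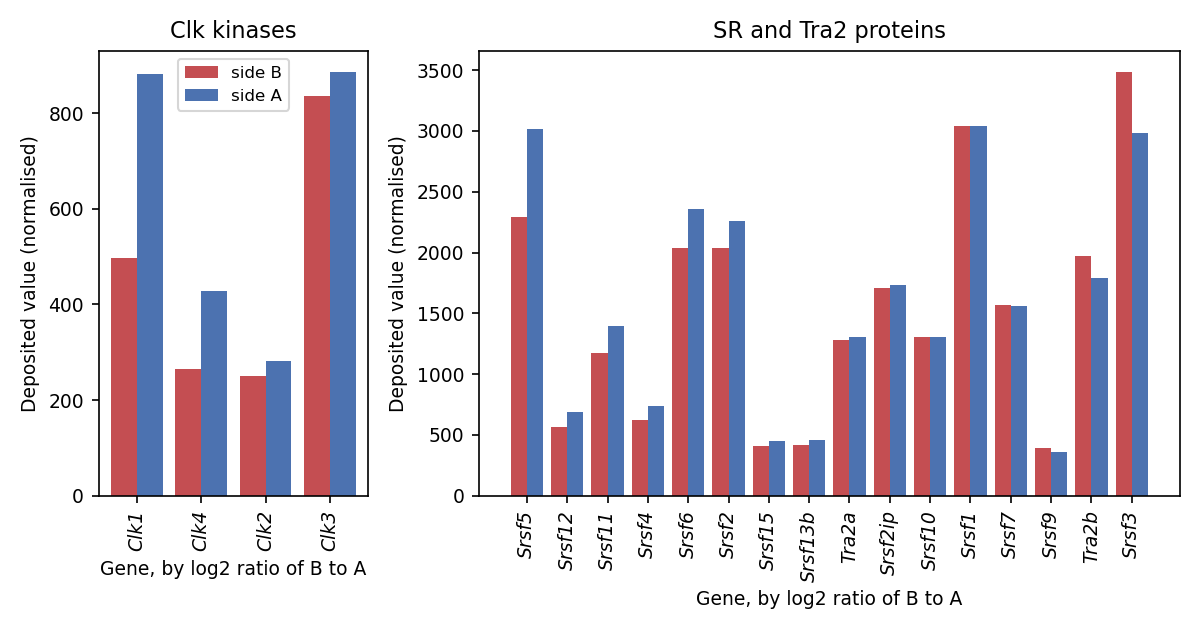
Deposited normalised values (vertical axes, from 0) of each Clk kinase (left) and each Srsf and Tra2 row (right), with side B beside side A for each gene, ordered by the log2 ratio of B to A. Each bar is a single deposited value without an error. Clk1 stands at 498 on side B and 882 on side A, while Srsf1 is level at 3042 and 3041.

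The hnRNP genes had the largest summed value of any family and the smallest SD of log2 ratios across its genes, 0.088. None of the 18 was 20% lower or 25% higher. Of these, 13 were lower and 5 higher, with a median log2 ratio of -0.05. Their sum of 49862 on side B and 51457 on side A made up 0.261% of all values on side B and 0.266% on side A. Hnrnpa2b1, which binds and sorts RNAs including those carried along axons, had 6483 on side B and 7296 on side A, a ratio of 0.889. Hnrnpa3 had 2253 on side B and 2523 on side A. Per kilobase, Hnrnpa2b1 was the most abundant of all members on either side, at 3752 on side B and 4222 on side A.

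Hnrnpa0 had the highest ratio of the family, with 1800 on side B and 1680 on side A (log2 ratio 0.10). Hnrnpf, a binder of G-rich RNA, had 2536 on side B and 2425 on side A, and Hnrnpc, which packages nascent transcripts, had 4998 on side B and 4780 on side A. Hnrnpk, which binds C-rich RNA and had the highest side B value of any member, had 6756 on side B and 6906 on side A. Hnrnpa1 was listed at only 63 on side B and 72 on side A. In the reference transcripts 46.4% of its 50-base stretches also occur in other genes, such as Gm10052 and Gm7729, and no source used here gives how reads with several positions were counted. Its level is therefore uncertain. The share was 49.0% for Hnrnpf, 34.5% for Hnrnpk, 28.2% for Hnrnpa3 and 12.3% for Hnrnpc, so their values carry the same limit.

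Factors of 3' splice site recognition differed little. U2af2, the large U2AF subunit that binds the polypyrimidine tract, had 2121 on side B and 2179 on side A, a ratio of 0.973. U2af1, the small subunit that reads the AG at the intron's end, had 833 on side B and 806 on side A. U2af1l4, a relative of U2af1, had 517 on side B and 455 on side A, 1.14-fold higher, but 97.2% of its 50-base stretches occur in the overlapping gene Gm49396. For U2af1 the share of such stretches was 59.4%, and for U2af2 29.9%.

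All 8 SF3 genes, whose products anchor the U2 snRNP at the branch site, stayed inside the same limits, with 6 lower, 2 higher and a median log2 ratio of -0.07. The extremes were Sf3a1 with 1432 on side B and 1561 on side A, Sf3b2 with 4259 on side B and 4632 on side A, and Sf3b5 with 325 on side B and 293 on side A. Sf3a2 had 549 on side B and 589 on side A. Sf3b3 (1652 on side B, 1669 on side A) and Sf3b4 (848 on side B, 843 on side A) were near equal. Reads of Sf3b4 are partly uncertain, since 49.3% of its 50-base stretches also occur in Gm7935.

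The Prpf genes had the most one-sided count among the larger families. Of 13 genes 11 were lower and 2 higher, again all inside those limits, with a median log2 ratio of -0.11. Prpf4b, a kinase of the spliceosome that phosphorylates Prpf proteins of the tri-snRNP, had 1051 on side B and 1297 on side A, 1.23-fold lower (log2 ratio -0.30). Of its 500 nearest genes 20 were lower, so Prpf4b lay inside the central 95% of them.

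Prpf3, a tri-snRNP protein, had 306 on side B and 372 on side A. Prpf39, a U1-associated factor, had 366 on side B and 439 on side A. Prpf8, the scaffold at the catalytic centre, had the highest value of the family and was nearly level, with 3956 on side B and 4044 on side A. Prpf18, a late-step factor, was level at 1382 on side B and 1392 on side A. The higher genes were Prpf38a, with 365 on side B and 342 on side A, and Prpf19, the ubiquitin ligase of the Prp19 complex, with 3714 on side B and 3546 on side A.

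The Rbm genes share little beyond an RNA recognition motif and had no common direction. Of 37 rows 30 reached a mean of 50, with 16 lower, 14 higher and a median log2 ratio of -0.01. Rbm33, an RNA-binding protein linked to mRNA export and to removal of m6A, had 493 on side B and 731 on side A. It was 1.48-fold lower (log2 ratio -0.57), just short of 1.5-fold. Only 2 of its 500 nearest genes were lower, and the adjusted p in the authors' deposited table is 0.956.

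Rbm15, which guides the m6A methyltransferase, had 112 on side B and 149 on side A, and 42 of its 500 nearest genes were lower. Rbm25, a U1-associated regulator, had 1434 on side B and 1745 on side A (log2 ratio -0.28). Rbm39, a partner of U2AF with the highest mean value of the Rbm genes, had 2833 on side B and 3024 on side A. At the other end stood Rbm4, with 122 on side B and 99 on side A, and its relative Rbm4b, with 110 on side B and 94 on side A. Reads of Rbm4 and Rbm4b are uncertain, since 66.5% and 21.7% of their 50-base stretches are shared with other transcripts, including each other's. Rbm22, a factor of the activated spliceosome, had 523 on side B and 466 on side A. The cold-inducible Rbm3 had 1796 on side B and 1674 on side A, and 13.6% of its 50-base stretches occur in other genes such as Gm10156.

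The 7 members below a mean value of 50 were all Rbm genes. Rbm46 had 45 on both sides, Rbm38 had 33 on side B and 30 on side A, and Rbm47 had 20 on side B and 14 on side A. Rbm20, the titin splicing factor of heart and skeletal muscle, had 9 on both sides, and Rbm24, another muscle splicing factor, had 3 on both. Rbm44 was listed at 0 on side B and 1 on side A, and the Y-linked Rbm31y at 0 on both. The 4 X-linked members, Rbm3, Rbm10, Rbm41 and Hnrnph2, summed to 4727 on side B and 4569 on side A, with 2 lower and 2 higher. These values stood beside the side differences in Xist and in muscle markers given above.

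**Figure D3:**
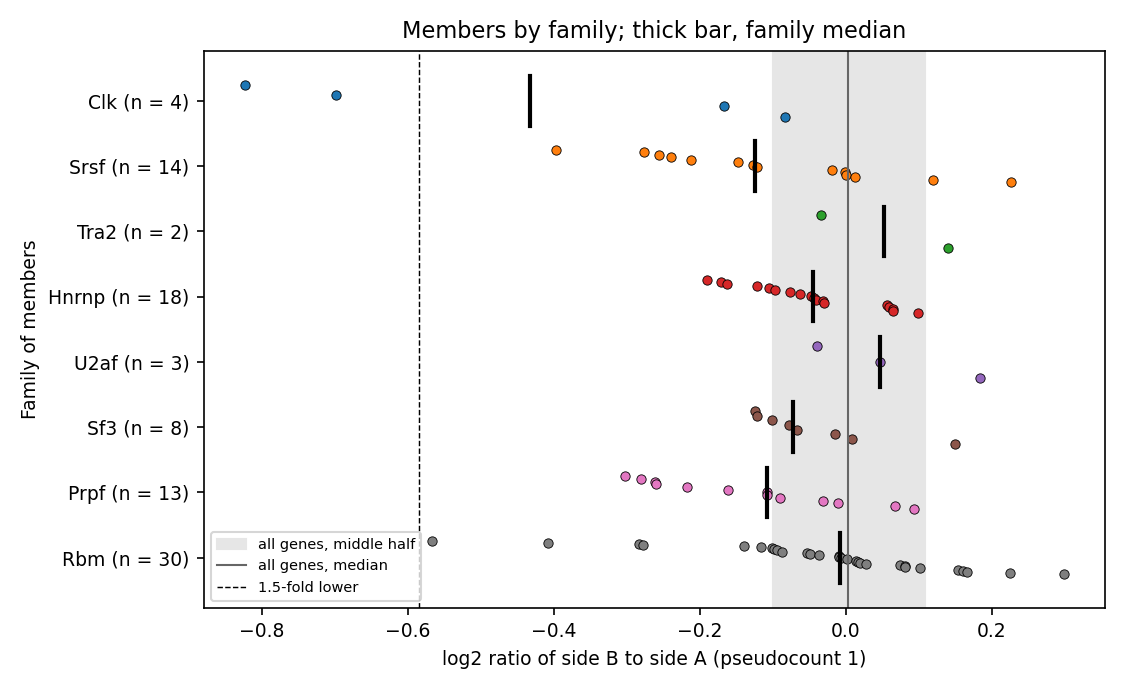
Log2 ratio of side B to side A (pseudocount 1, horizontal axis) of the 92 members whose mean reached 50, by family from top to bottom. Each point is a gene and the thick bar the family median, the grey band spans the 25th to the 75th percentile of all genes, and the dashed line marks 1.5-fold lower. The Clk family median of -0.43 rests on Clk1 and Clk4, while the hnRNP and Sf3 genes lie between -0.19 and 0.15.

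Members with more annotated retained-intron transcripts had slightly lower median ratios. The median log2 ratio was -0.08 over the 34 tested members with 3 or more such transcripts, -0.05 over the 30 with 1 or 2 and -0.01 over the 28 with none. On side B 26 of the 34 (76.5%), 19 of the 30 (63.3%) and 17 of the 28 (60.7%) were lower, and Clk1 and Clk4 are in the first set. The same shares were not computed over all genes, so this order cannot be called particular to the members. Across the 92 members, which are not independent replicates, Spearman's rho between the number of such transcripts and the log2 ratio was -0.20 and Pearson's r was -0.18. Single genes departed from this order: Rbm5 and Hnrnpk, with 13 such transcripts each, had log2 ratios of -0.05 and -0.03, U2af1l4, also with 13 but of uncertain reads, had 0.18, and Rbm33, with none, had -0.57.

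Splicing genes outside the symbol rule were read from 6 lists, also chosen with earlier results of these data known. Of the proteins of nuclear speckles and SR-related proteins, 28 of 29 genes were lower on side B, 3 of them by at least 1.5-fold, with a median log2 ratio of -0.19. That list shares Srsf15, Srsf2ip and Rbm16 (Scaf8) with the members, and the 26 others were all lower, with a median of -0.22. Srrm2, a large scaffold protein of speckles, had 3275 on side B and 5634 on side A, 1.72-fold lower, and Rnpc3, a protein of the minor spliceosome, had 295 on side B and 560 on side A, 1.90-fold lower.

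Srrm2 fell in the authors' deposited table (adjusted p 4.15e-06), as did D4Wsu53e, an older symbol of the arginine-serine-rich gene Rsrp1 that belongs to that list by its current symbol and was singled out here after its values were seen. D4Wsu53e had 1447 on side B and 2373 on side A (adjusted p 0.00208 in the authors' deposited table). For Rnpc3 the adjusted p in the authors' deposited table is 0.0588. Thrap3, with 2473 on side B and 2492 on side A, and Rbm16, with 1136 on side B and 1135 on side A, were level.

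Core snRNP and Sm proteins leaned the other way, with 19 of 25 higher, 6 lower and a median log2 ratio of 0.12. These transcripts are short, with a median of 1161 bases, against 3322 over all genes. After ratios were centred by transcript length the list's median was 0.03 and the members' median -0.05. The same centring gave -0.16 for the speckle list and -0.99 for 9 nuclear long noncoding RNAs. It gave -0.06 for tissue-specific regulators, -0.05 for other kinases and phosphatases, and -0.07 for the exon junction and decay list. At the lower end stood Snrnp70, the U1-specific protein that SR proteins contact. It had 1009 on side B and 1619 on side A, 1.60-fold lower, and fell in the authors' deposited table (adjusted p 0.0203). Snrpn, an imprinted Sm protein gene of neurons, had 97 on side B and 127 on side A. Lsm3 had 324 on side B and 257 on side A, and Snrpa1 had 269 on side B and 219 on side A.

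Kinases and phosphatases of SR proteins other than Clk differed by small amounts. Of 12 tested genes 8 were lower and 4 higher, none by 1.5-fold, with a median log2 ratio of -0.07. Dyrk2 had 190 on side B and 255 on side A, and Dyrk1b had 286 on side B and 324 on side A. Dyrk3, which dissolves speckles when active, had 79 on side B and 63 on side A. Ppp1cc, a catalytic subunit of protein phosphatase 1, had 2390 on side B and 2157 on side A.

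Tissue-specific splicing regulators had 18 lower, 7 higher and 1 equal of 26 tested genes, none by 1.5-fold, with a median of -0.09. Tia1, a U-rich RNA binder of stress granules, had 335 on side B and 462 on side A. Srrm4, the neuronal activator of microexons, had 946 on side B and 1166 on side A. Qk, a regulator of splicing in glia, had 3293 on side B and 2725 on side A, and Celf2 had 843 on side B and 747 on side A. The higher satellite glia markers on side B stood beside the Qk value and their part was not tested.

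Of 14 genes of the exon junction complex and nonsense-mediated decay, which removes many transcripts with early stop codons, 10 were lower and 4 higher, with a median of -0.06. Upf1, the helicase of that pathway, had 974 on side B and 1311 on side A (log2 ratio -0.43, adjusted p = 1 in the authors' deposited table). Upf3b had 413 on side B and 501 on side A. Magoh had 370 on side B and 332 on side A, and Magohb had 111 on side B and 103 on side A.

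The largest differences among the lists were in nuclear long noncoding RNAs, which were all lower on side B. All 10 were lower, 7 of them by at least 1.5-fold, with a median log2 ratio of -1.08, and they summed to 22761 on side B and 51310 on side A. Miat had 688 on side B and 2497 on side A, and the imprinted Meg3 had 5631 on side B and 19461 on side A. Rian had 9396 on side B and 11164 on side A, and Kcnq1ot1 had 368 on side B and 461 on side A. The part of these RNAs in the splicing genes was not tested.

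**Figure D4:**
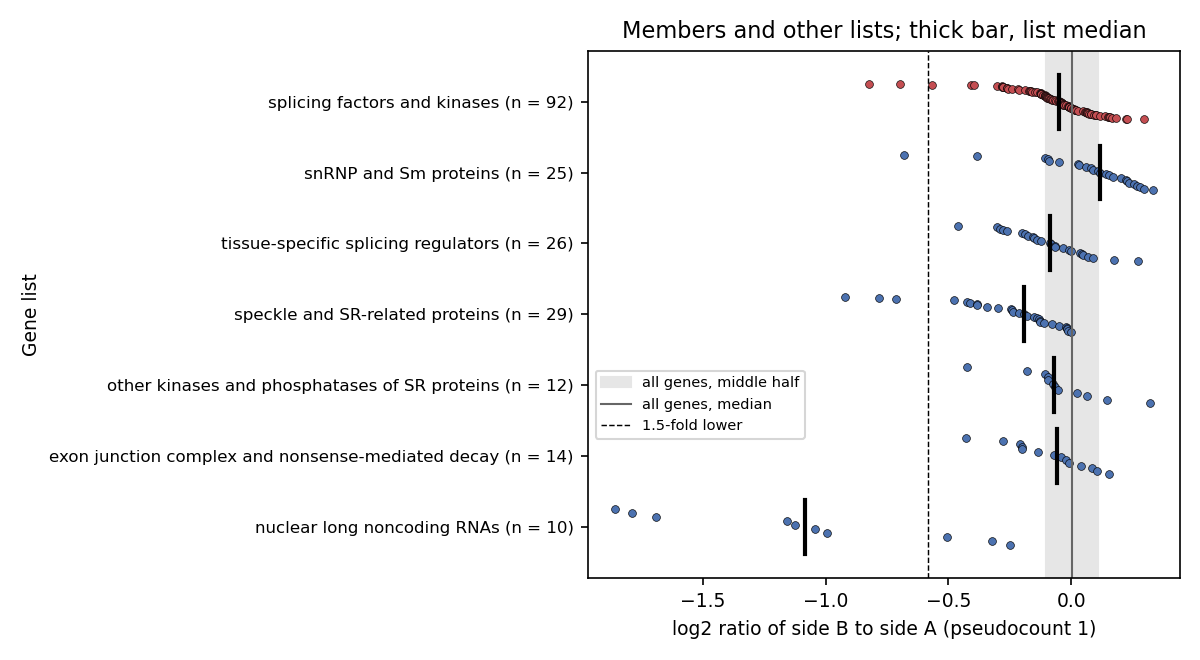
Log2 ratio of side B to side A (pseudocount 1, horizontal axis) of the 92 tested members and of the 6 lists, from top to bottom, for genes whose mean reached 50. Each point is a gene, the thick bar the list median, the grey band the 25th to 75th percentile of all genes and the dashed line 1.5-fold lower. The nuclear noncoding RNAs have a median of -1.08 and the members one of -0.05.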

How the data were processed

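RNA of 4 pooled samples was sequenced, 1 for each genotype. Per the submitters' processing notes, the tools were HTSeq 0.5.4p1, DESeq, TopHat2 2.0.8 and SAMtools 0.1.19, and the build was mm9. Not given in the sources used here are the annotation, the strand setting, the libraries behind each column and the treatment of multiply mapped reads.

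The authors deposited a single table. Per the file headers its 2 value columns are DESeq group means, treated as a normalised score because no column names its samples. The column headed mutant equals the mean of both and was used only for that check. The fold ratio, p-value and adjusted p-value are the authors' deposited columns, and p-values were copied, not recomputed. Depth per sample is unknown, so no counting error is given.

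Log2 ratios of side B to side A used a pseudocount of 1, which understates low genes. Members with a mean value of at least 50 were counted at 1.5-fold. The code that counts genes past the fold threshold was checked on simulated data. With 1 column a side, no test between the groups was possible. Named members were every Clk, Tra2 and U2af gene; in the other families the 3 highest and 3 lowest ratios and the most abundant gene; and in other lists the 2 highest and 2 lowest. Further members are named for their level or equality, after their values were seen. Members and lists were chosen with earlier results of these data known. All 99 rows matched GENCODE M21 (GRCm38), used for lengths, transcript classes, overlaps and shared 50-base stretches; 5 did so by a RefSeq synonym. Lsm8 had no match. A protein feature that had been planned was not computed. Python 3.11.15, pandas 2.3.3, NumPy 2.4.6 and Matplotlib 3.10.9 were used. The result of 1 marker gene is not reported here.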

Additional observations from a re-analysis of the deposited data

How the results depend on the processing

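Under every alternative at the same threshold, namely other pseudocounts, scalings, centrings, minimum values and the omission of 26 members that share 10% or more of their 50-base stretches (chosen after seeing the data), between 2 and 3 members were at least 1.5-fold lower and none higher. At a threshold of 20% lower 5 were lower, and at 2-fold 0 were. The members' median log2 ratio stayed between -0.09 and -0.03. The share of members lower by any amount ranged from 60.9% to 74.6%. It was lowest, 56 of 92 beside 45.0% of all genes, when values were divided by the column sum. It was highest, 50 of 67 beside 48.8% of all genes, without the members that share stretches. With ratios centred on the median of genes, 64 of 92 were lower. Of the 25 tested members that share stretches, 12 were lower and 13 higher. The median of the U2af genes was -0.071 when centred by transcript length, a change of sign, and the cause was not tested. The medians of Rbm and Tra2 also crossed 0. Of 41 named members 7, with log2 ratios of at most 0.12 in size, changed sign under at least 1 of 6 alternatives. Clk1 ranged from -0.89 to -0.81 and Clk4 from -0.73 to -0.68. By the unadjusted p under 0.05 of the authors' deposited table, there were 4 members in place of 1 by the adjusted p. No paired analysis was possible because each group is a single pool and the columns carry no sample names. Depth per sample is unknown, so how far it limits these values is not known.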
